A study of Oryza sativa Indica Group with 4 samples.

Results

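Ascorbate peroxidases were described here in rice seedlings of a T-DNA insertion line and of its parent cultivar. The family members were all probe sets of the array whose single annotated gene carries a symbol or synonym APX1 to APX8. This gave 10 probe sets for 7 genes, out of 57381 probe sets in all and 17905 annotated genes. APX2 had 4 of them, and APX1, APX4, APX5, APX6, APX7 and APX8 had 1 each. APX3, a peroxisomal member, had no probe set under this rule and was not analysed here.

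Ascorbate peroxidase uses ascorbate, vitamin C, to reduce hydrogen peroxide to water. The oxidised ascorbate is then recycled by monodehydroascorbate reductase, dehydroascorbate reductase and glutathione reductase. In plants each compartment that makes peroxide holds its own enzymes: in rice APX1 and APX2 are cytosolic, APX3 and APX4 peroxisomal, APX7 lies in the chloroplast stroma and APX8 at the thylakoid membrane, while APX5 and APX6 are placed in plastids or mitochondria. The genes APX5 and APX6 are direct neighbours in RefSeq's assembly ASM3414082v1.

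Both groups were seedlings of the Indica cultivar Basmati 370 (B370), sampled 15 days after germination and grown under conditions the submitters call optimal. The wild type gave 2 arrays, and the T-DNA insertional mutant OsAPC6, named for a subunit of the anaphase-promoting complex, gave 2, each from 8 µg of total RNA. The complex is a ubiquitin ligase that drives cells through mitosis. The labels do not say how many insertion lines or plants stand behind the mutant arrays, nor which seedling organs were taken. The transcript of OsAPC6 was not analysed here.

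Signals are linear probe set intensities, brought to a common trimmed mean before deposit. Across 38130 probe sets, Pearson's r of log2 signals was 0.979 within wild type, 0.976 within the mutant and 0.962 to 0.964 for arrays of different genotype. The GAPDH control reports RNA integrity. Its 3′ to 5′ signal ratios were 9.71 and 9.84 in wild type against 18.4 and 16.2 in the mutant. The ratios of ubiquitin were 1.04 and 1.03 against 1.32 and 1.27. Those of actin, 16.1 and 8.79 against 12.2 and 16.6, and of cyclophilin, 2.27 and 2.86 against 2.92 and 2.38, overlapped. For GAPDH and actin the 3′ signal was thus several times the 5′ signal in every array, wild type included. The part of RNA integrity in the results below was not tested. Among 19 rice control probe sets the largest difference between genotypes was -0.77 on the log2(signal + 16) scale, and 14.9% of all tested probe sets differed by more than that.

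The question was how transcripts of the family differed between the insertion line and its parent. APX7, the stromal enzyme, rose 1.82-fold and the peroxisomal APX4 rose 1.37-fold, while the cytosolic APX1 fell to 0.815 of its wild-type level. The other 4 measured genes, APX2, APX5, APX6 and APX8, did not pass the test by the probe set counted for each gene, the one with the highest mean signal. Of the 7 genes 2 thus rose and 1 fell, with a median log2 difference of 0.01, beside a median of -0.02 over all annotated genes. Across annotated genes, at 1 probe set each, 26.4% passed, 12.9% higher and 13.5% lower. Counting probe sets, 3 of the 10 were higher and 1 lower in the mutant, where 19.1% of all 38130 tested probe sets passed, 8.86% higher and 10.3% lower. Most members are bright, and among probe sets within 0.25 log2 units of the signal of each of the 7 counted ones, 22.0% to 40.1% passed. The count of members that passed is therefore not read as a property of the family. Passing means a limma adjusted p under 0.05, with an intensity trend and Benjamini-Hochberg adjustment over all tested probe sets. All log2 differences are mutant minus wild type on the log2(signal + 16) scale.

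**Figure D1:**
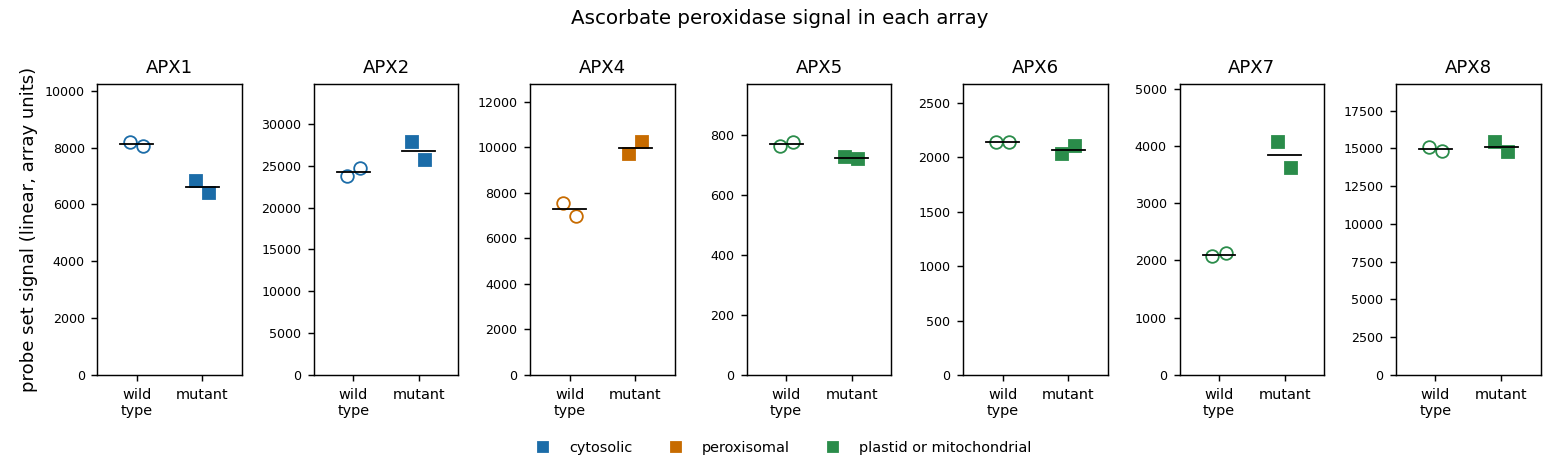
Signal of the 7 ascorbate peroxidase genes in each of the 4 arrays (linear array units, vertical axis from 0 in each panel, open circles wild type, filled squares mutant, black bars group means). The mutant arrays lie above both wild-type arrays for APX7, APX4 and APX2, below them for APX1, APX5 and APX6, and overlap them for APX8.

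The plot of signals by array shows how far apart the genotypes were in each gene. Levels are comparable only within a panel, since each probe set has its own response to its transcript.

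Among the plastid or mitochondrial members APX7 stood out. Its signal was 2075.8 and 2130.8 in wild type, against 4071.0 and 3612.8 in the mutant. Both mutant arrays were well above both wild-type arrays, with ratios of 1.70 to 1.96 over the 4 pairs of arrays. The means were 2103 ± 38.9 (SD, n = 2) and 3842 ± 324 (SD, n = 2), which is 0.86 ± 0.08 (SE) on the log2 scale (limma adjusted p = 4.39e-05). APX7 was the only family gene whose difference was larger than that of any of the 19 rice control probe sets. Of the 1428 probe sets at like signal, 96.1% differed less between genotypes, and of all tested probe sets 88.5% did. With a single variance prior in place of the trend, which called 0 probe sets on the array (9026 at an unadjusted p under 0.05), APX7 had a limma adjusted p of 0.0809, the highest in a range from 2.44e-08 over its alternatives, and an unadjusted p of 0.00341.

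APX8, the thylakoid-bound enzyme of the same chloroplasts, gave 15108.0 and 14801.6 in wild type and 15428.2 and 14766.6 in the mutant. The genotypes overlapped, and the log2 difference was 0.01, with a 95% interval from -0.12 to 0.15 (limma adjusted p = 0.918). Its sign turned under quantile normalization, to -0.05. The upper bound of 0.15 lies under the lower bound of the interval of APX7, 0.69.

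APX5 read 764.6 and 777.9 in wild type and 727.9 and 722.5 in the mutant. APX6, its neighbour, read 2142.2 and 2141.5 in wild type and 2035.7 and 2103.3 in the mutant. In both genes the mutant arrays were lower without overlap, as they were in 29.8% of all tested probe sets, but the gaps were small. Over the family the arrays of the genotypes did not overlap in 7 of 10 probe sets, 4 higher and 3 lower, where 56.7% of all tested probe sets, 26.9% higher and 29.8% lower, did not. The log2 differences were -0.09 (95% interval -0.31 to 0.13; limma adjusted p = 0.621) for APX5 and -0.05 (-0.21 to 0.12; limma adjusted p = 0.722) for APX6.

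The peroxisomal class was measured through APX4 alone. APX4 gave 7558.6 and 6977.7 in wild type, against 9725.5 and 10235.9 in the mutant. Every mutant array exceeded every wild-type array, by ratios of 1.29 to 1.47. From 7268 ± 411 (SD, n = 2) to 9981 ± 361 (SD, n = 2), APX4 rose by 0.46 ± 0.07 (SE) in log2 units (limma adjusted p = 0.00105). This was smaller than the largest control difference, and 87.5% of the 479 probe sets at like signal differed less. With a single variance prior its limma adjusted p was 0.145, in a range from 0.000257 to 0.145 over its alternatives.

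Of the cytosolic pair APX1 passed, and APX2 by its brightest probe set did not. APX1 read 8199.3 and 8042.7 in wild type and 6823.3 and 6409.4 in the mutant, so that both mutant arrays were below both wild-type arrays. It fell by 0.30 on the log2 scale (SE 0.06, limma adjusted p = 0.00967), from 8121 ± 110.7 to 6616 ± 293 (SD, n = 2 each). Of the 569 probe sets at like signal, 71.4% differed less. The call of APX1 was lost without the first wild-type array (log2 difference -0.28, limma adjusted p = 0.0951), without the second (-0.31, adjusted p = 0.0685) and with a single variance prior (adjusted p = 0.224, in a range from 0.00262 to 0.224). Without either of the wild-type arrays 2 of the 10 probe sets passed in place of 4.

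APX2, the other cytosolic enzyme, was covered by 4 probe sets, which share their target and are not replicates. The brightest read 23816.2 and 24701.3 in wild type and 27850.1 and 25651.9 in the mutant. Its log2 difference was 0.14 (95% interval -0.0047 to 0.28, limma adjusted p = 0.178). This difference was 0.20 without the second mutant array, and 0.03 under quantile normalization (limma adjusted p = 0.729). Another bright one, whose name ends in _x_at and which may also take up signal of other transcripts, overlapped between genotypes, at 20231.9 and 20565.0 against 21634.4 and 18988.4, a log2 difference of -0.01 (limma adjusted p = 0.954). A dimmer one, at 1118.7 and 1138.8 against 1449.7 and 1353.4, was called 0.31 higher (SE 0.09, limma adjusted p = 0.0308). With no filter on low signals 3 probe sets of the family passed in place of 4, and this one was not among them. The last was near the floor, at 48.3 and 30.2 against 72.9 and 41.9, with an interval from -0.51 to 1.30. The probe sets of this gene thus differed in call, although their 95% intervals all overlapped.

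**Figure D2:**
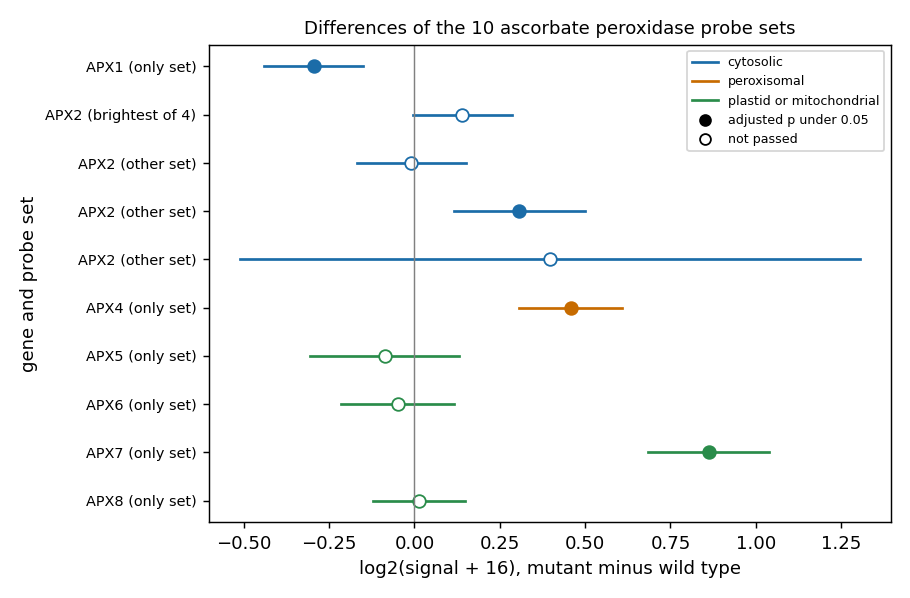
Log2 differences, mutant minus wild type, of the 10 ascorbate peroxidase probe sets (points) with limma's 95% intervals (lines), coloured by compartment and filled where the adjusted p was under 0.05. APX7 at 0.86 and APX4 at 0.46 lie to the right, APX1 at -0.30 to the left, and the 4 probe sets of APX2 between -0.01 and 0.40.

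Set side by side, the measured genes of the cytosolic class did not share 1 size of difference. Neither did those of the plastid or mitochondrial class, APX5 to APX8. The peroxisomal class, with 1 measured gene, cannot be read this way. The 2 cytosolic genes had log2 differences of -0.30 and 0.14, and the 4 plastid or mitochondrial genes ranged from -0.09 to 0.86. The plastid or mitochondrial class had a median of -0.02 and a mean of 0.18, which differ in sign. APX7 was the 1 gene of the class past the threshold. These 4 genes averaged 0.21 and 0.16 above the wild-type mean in the mutant arrays, on the log2 scale, an average lifted by APX7. APX5, APX6 and APX8 had log2 differences of -0.09, -0.05 and 0.01.

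Differences in response between genes were compared for all 21 pairs of the 7 genes, as the mutant minus wild-type difference of their per-array log2 ratio. APX7 responded more than APX8 by 0.85 (0.76 to 0.94 over the 4 pairs of arrays), and the responses of APX5 and APX6 lay below that of APX7, at -0.95 (-1.04 to -0.86) and -0.91 (-1.04 to -0.78). Between the cytosolic genes, the response of APX1 lay below that of APX2, at -0.44 (-0.49 to -0.38). APX7 also exceeded APX4, with APX4 minus APX7 at -0.40 (-0.60 to -0.21). The range lay clear of 0 in 19 of all 21 pairs, so this does not set the 5 pairs given here apart. The exact two-sided permutation test over 2 against 2 arrays gave p = 0.333 for each of these 5 pairs (0.368 after Benjamini-Hochberg adjustment over the 21). That is the smallest p it can give with these numbers, so this test can call no pair.

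**Figure D3:**
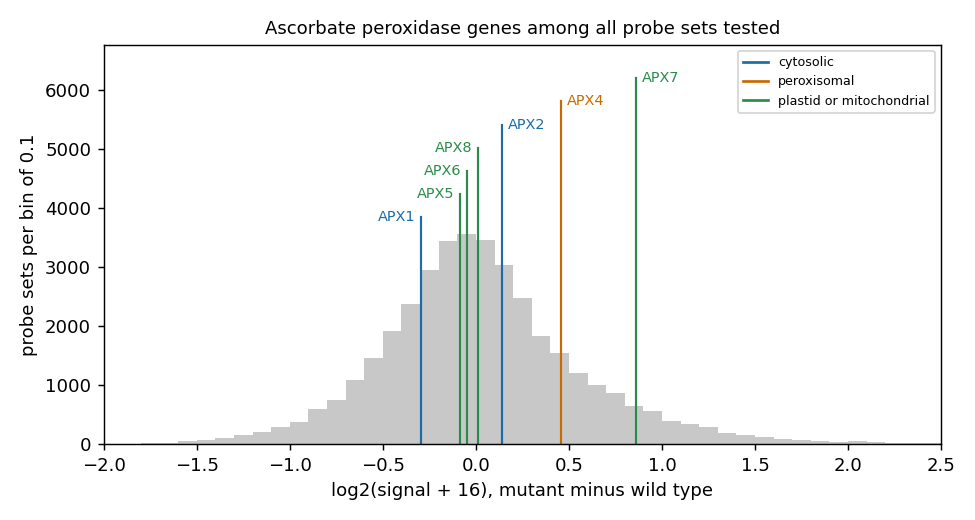
Distribution of the log2 difference, mutant minus wild type, over all tested probe sets (grey bars, number of probe sets per bin of 0.1; the axis is limited to the range from -2 to 2.5) with the 7 ascorbate peroxidase genes marked by lines coloured by compartment, whose heights carry no value. APX5, APX6 and APX8 lie at the centre, and APX7 at 0.86 lies beyond 92.6% of the probe sets.

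Genes that make and recycle ascorbate did not pass. Both genes of monodehydroascorbate reductase with a probe set, MDAR2 and MDAR5, missed the threshold, with log2 differences of -0.14 and 0.07 (limma adjusted p = 0.225 and 0.58). MDAR2 read 7016.3 and 7178.2 in wild type and 6144.4 and 6782.1 in the mutant. No gene of dehydroascorbate reductase or glutathione reductase was found under these names in the annotation used here. The 4 genes of ascorbate synthesis found by name, GME-1, GME-2, GLDH1 and OsPMM, missed the threshold as well, with a median of -0.13. Names searched for other steps, such as GGP and GALDH, gave no gene. GME-1, an epimerase of GDP-mannose in the plant route, had -0.05 (limma adjusted p = 0.697). The phosphomannomutase gene OsPMM had -0.14 by its brightest probe set, whose name ends in _x_at (limma adjusted p = 0.409). Its other probe sets had the opposite sign, at 0.15 and, near the floor, 0.42, and did not pass.

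The other enzymes of peroxide and superoxide showed 2 rises and 1 fall among 8 genes, where 26.4% of annotated genes passed. Chloroplast sodCp, a copper and zinc superoxide dismutase that turns superoxide into peroxide, rose by 0.24 (SE 0.07, limma adjusted p = 0.0321), from 13679.3 and 13873.5 to 17057.1 and 15470.0. Its cytosolic relatives SODCC.1 and SODCC.2 had 0.14 and 0.11 and did not pass. CAT-B, a catalase gene, rose by 0.30 in its brightest probe set (SE 0.06, limma adjusted p = 0.008), but another of its probe sets was called the other way. CAT-A, another catalase gene, had 0.13 (limma adjusted p = 0.274), and bas1, a chloroplast peroxiredoxin gene, 0.04 (limma adjusted p = 0.778). OsrbohB, an NADPH oxidase gene whose product makes superoxide at the plasma membrane, fell by 0.23 (SE 0.07, limma adjusted p = 0.0332). Over these 14 genes, ascorbate supply included, 2 were called higher and 1 lower, with a median of 0.02; the share called was not above the 26.4% of all annotated genes. That count was 1 without a filter on low signals and 0 without either of the wild-type arrays.

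**Figure D4:**
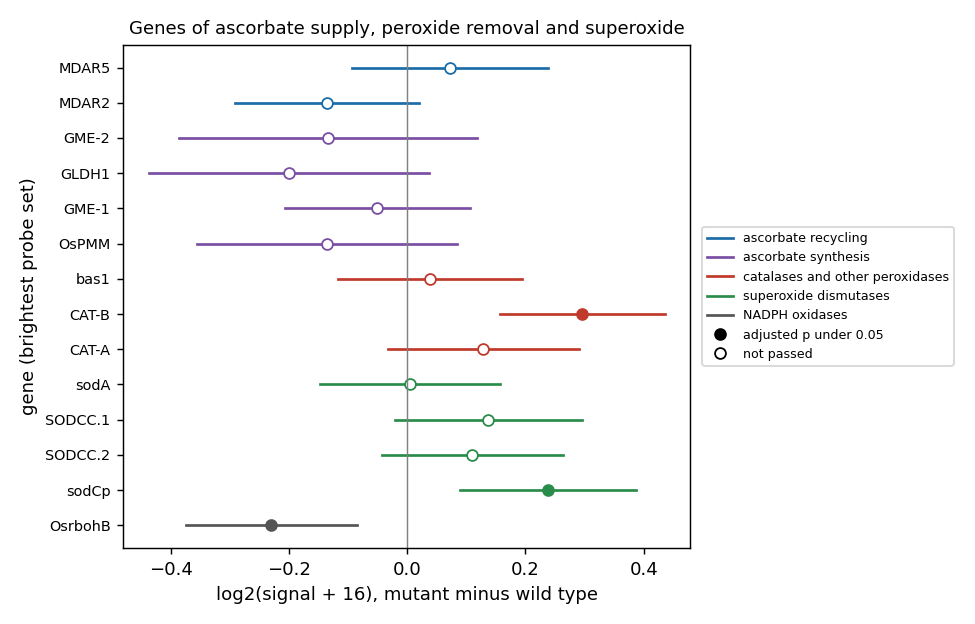
Log2 differences, mutant minus wild type, of the 14 genes of ascorbate supply, peroxide removal and superoxide (points, the brightest probe set of each gene) with limma's 95% intervals, coloured by list and filled where the adjusted p was under 0.05. CAT-B and sodCp lie to the right at 0.30 and 0.24, OsrbohB to the left at -0.23, and the remaining 11 genes have intervals that include 0.

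Because plastid, peroxisomal and cytosolic enzymes differ in abundance between organs, markers of green tissue and root were read beside the family. Of 5 green tissue genes 2 were called higher and 1 lower. The Rubisco activase gene rca rose by 0.49 and the Rubisco small subunit gene OsrbcS by 0.26 (limma adjusted p = 0.002 and 0.0264), while the regulator gene GLK1 fell by 0.63 (limma adjusted p = 0.000224). The rise of OsrbcS rests on 1 probe set with a name ending in _x_at. Its other 3 had differences of -0.07, -0.38 and -0.46, none past the threshold. Those at -0.07 and -0.38 overlapped between genotypes, and the one at -0.46 was near the floor. The sets at -0.38 and -0.46 also have names ending in _x_at. With such names and those in _s_at left out, the markers called went from 5 to 4. CAB2R, a light-harvesting gene, had 0.21 (limma adjusted p = 0.0729), and RBCS1, near the floor, did not pass. Their summed signal was 94751 and 98918 in wild type and 125545 and 110012 in the mutant, a sum in which the bright rca, OsrbcS and CAB2R outweigh GLK1. Of 5 root genes, the phosphate transporter gene OsPht1;8 rose by 0.97 and the silicon channel gene Lsi1 fell by 0.74 (limma adjusted p = 0.000752 and 0.00072), AMT1-2 and OsSHR1 did not pass, and Lsi2 stayed at or under 2.1 in all arrays and was not tested. The summed signal of the 4 tested root genes was 3220.5 and 3214.4 against 3496.2 and 4304.1. Both sums were thus higher in the mutant without overlap, as were the signals of 26.9% of all tested probe sets. In the root sum the rise of OsPht1;8, from 1540.1 and 1204.4 to 2352.8 and 3062.6, outweighed the fall of Lsi1. Lsi1 went from 1522.8 and 1836.5 to 967.1 and 1025.3, so the root markers did not share 1 direction. The part of tissue makeup in the family's differences was not tested, and in RNA of mixed cells fewer cells of a type and less RNA per cell cannot be told apart.

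The genes whose profile over the 4 arrays was nearest to that of APX7, among 2287 genes with an informative name, were BGLU33, HSP24.1 and Cht11. The root mean square distance of their centred log2 values from those of APX7 was 0.03, 0.03 and 0.04. Cht11, of the chitinase family, went from 7072.3 and 7128.5 to 13465.4 and 12777.8, and HSP24.1, a small heat shock protein gene, from 528.0 and 554.3 to 1109.7 and 929.8. BGLU33, of the β-glucosidase family, was dim, at 57.4 and 59.6 against 125.1 and 105.0, and did not pass (limma adjusted p = 0.0762). With 4 arrays in 2 groups this likeness reflects little more than a similar size of difference.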

How the data were processed

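Seedling RNA (TRIzol) was biotin-labelled and read on 1 Affymetrix rice array per sample, per the labels' protocols. The authors deposited a linear intensity for each probe set; GCOS 1.2 is the software in the submitters' processing notes, and how it computed signals is not given in the sources used here. A mean over the central values, with 2% trimmed at each end, came to 500.1 in every array.

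The 187 control and reporter probe sets were left out, then the third that was dimmest by mean signal of all 4 arrays (19064); 38130 remained. Log2(signal + 16) was compared with limma 3.58.1 in R 4.3.3 (lmFit and eBayes with an intensity trend, Benjamini-Hochberg adjustment). Array medians lay within 0.06, so nothing was rescaled. The added 16 understates differences of dim probe sets. The fit was tested on simulated data.

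Genes were named from the platform annotation, updated through gene numbers to RefSeq assembly ASM3414082v1, a Japonica genome (22436 probe sets with 1 gene, all matched, 95 with several, 34850 with none listed). Members and lists were chosen with earlier results of these data known, so no list was tested. Named genes were all members, called genes of each list (up to 4 per direction), up to 2 bright genes not called, and the 3 profiles nearest to the leading member. The labels call the samples biological replications, but nothing states separate growth. The p-values thus measure the spread between these arrays, pooled through the intensity trend with that of other probe sets of like signal. Having only 2 arrays per genotype limits every value. Genotype and any batch that follows it cannot be told apart.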

Additional observations from a re-analysis of the deposited data

How the results depend on the processing

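The variance prior mattered most. With 1 variance prior for all signals (no intensity trend), limma called 0 probe sets, 0 members, 0 of the 14 related genes and 0 tissue markers (9026 probe sets and 2 members at an unadjusted p under 0.05), with log2 differences as before of -0.2956 for APX1, 0.4574 for APX4 and 0.8618 for APX7; the cause was not tested. The related genes called went from 3 to 1 both with no filter on low signals and with the replicate block. Deviations of same-numbered arrays correlated at -0.00387 across probe sets, so the numbers were not taken to pair the arrays; with the replicate block 7803 probe sets and 4 members passed, and no gene of the family changed its call. Quantile normalization moved the cytosolic median to -0.15, the plastid or mitochondrial median to -0.051 and APX8 to -0.051. A common 75th percentile turned the plastid or mitochondrial median to 0.016. Leaving out each array in turn, with the lone array assumed to vary as the other group does, left 4635 to 6300 probe sets called (7301 with all arrays), 2 to 5 members, 0 to 3 related genes, -0.34 to -0.25 for APX1, 0.081 to 0.20 for APX2, 0.40 to 0.51 for APX4, 0.78 to 0.95 for APX7 and -0.018 to 0.045 for APX8. The alternatives for tissue markers and for differences in response between genes were added after seeing the data. These differences kept their sign in the 5 pairs and 15 alternatives run. Changes of the filter, the variance prior or the block cannot alter them, nor can leaving out names in _x_at or _s_at, which no counted member has. A common 75th percentile nearly cancels between genes, so none of these alternatives is a check of the sign.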

Other observations

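The catalase gene CAT-B had 5 tested probe sets, and its 2 called ones disagreed. The brightest, whose name ends in _s_at, read 9200.7 and 8912.5 in wild type and 11372.1 and 10874.4 in the mutant. Another read 4095.9 and 4319.0 against 3297.4 and 3300.1 and was called lower, at -0.35 on the log2 scale (SE 0.07, limma adjusted p = 0.00527). When names ending in _x_at or _s_at were left out, the related genes counted 1 higher and 2 lower in place of 2 and 1. CAT-A had a spread of the same kind, with log2 differences of 0.13 and 0.19 by probe sets ending in _x_at and -0.13 by one that does not, none past the threshold.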
